A study of Homo sapiens with 6 samples.

Results

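Microexons are very short exons that can be included in or skipped from a transcript. They were read here as splice triads, sets of 3 introns in the deposited table of spliced-read counts. A triad consists of a skipping intron, a shorter intron that ends at the microexon and a shorter intron that leaves it. The exon between the shorter introns had to be 3 to 51 nucleotides (nt) long, and each of the 3 introns had to hold at least 10 counts over the 6 libraries. This rule found 4059 triads among 50285 triads with a cassette exon (an exon that is included or skipped) of 3 to 1000 nt. The 4059 triads described 3259 different exons, in 2814 groups of overlapping introns and 2387 genes, and 330 triads matched no gene. Inclusion is the mean count of both flanking introns divided by that mean plus the skipping count, in percent.

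Microexons are best known from neurons, where many of them are switched on and add a few amino acids to surface loops of proteins that act at synapses and in membrane traffic. SRRM4 and SRRM3 promote their inclusion, whereas PTBP1 represses many of them and RBFOX, MBNL, QKI and CELF proteins act on others. TDP-43, the protein in which aggregation was induced here, binds UG-rich RNA and is best known for keeping unannotated exons out of transcripts.

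The study used U2OS cells, a human osteosarcoma line, that express a doxycycline-induced TDP-43 with an mNLS change (a mutated nuclear localization signal) and a green fluorescent Clover tag. One group received 50 nM fibril seeds of the TDP-43 low-complexity domain by lipid transfection, and its cells with Clover aggregates were sorted after 48 hours (aggregate cells). The other group received only protein storage buffer, and its cells with diffuse Clover signal were sorted (diffuse cells). Each group comprised 3 polyA RNA libraries from separate transfections of the same line, all doxycycline-induced, which the series describes as independent biological replicates. Seeds, sort gate and aggregation cannot be told apart. Whether the line is a single clone is not given in the sources used here. In these bulk samples, fewer cells that use an exon and lower use per cell cannot be told apart.

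The sequences below show coding exons among the largest changes, 8 whose inclusion rose and 6 whose inclusion fell. The calls of SERAC1, PLEKHA1 and MARK3 were lost under some of the alternatives given with their values. Capitals mark the microexon, and lower case marks 12 bases of the exon before and of the exon after it in the spliced transcript (5′ to 3′, GENCODE 29 transcripts on hg38). The first 8 rose.
PPFIBP1: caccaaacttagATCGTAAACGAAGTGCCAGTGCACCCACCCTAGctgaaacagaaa
PTS: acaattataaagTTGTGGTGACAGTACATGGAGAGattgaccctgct
ROBO1: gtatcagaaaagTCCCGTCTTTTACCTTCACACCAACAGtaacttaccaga
PTBP2: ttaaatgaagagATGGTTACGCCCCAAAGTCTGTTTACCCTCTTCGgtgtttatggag
SERAC1: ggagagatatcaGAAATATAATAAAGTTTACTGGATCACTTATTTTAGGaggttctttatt
MYH14: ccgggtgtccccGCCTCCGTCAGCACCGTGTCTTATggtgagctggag
WDR41: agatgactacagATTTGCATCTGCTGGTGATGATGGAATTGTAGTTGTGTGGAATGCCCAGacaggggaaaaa
PLEKHA1: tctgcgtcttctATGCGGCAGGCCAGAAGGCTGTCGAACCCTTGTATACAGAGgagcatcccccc
The next 6 fell.
DST: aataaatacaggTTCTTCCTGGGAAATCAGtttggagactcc
KIF21A: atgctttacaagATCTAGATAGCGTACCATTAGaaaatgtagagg
SPAG9: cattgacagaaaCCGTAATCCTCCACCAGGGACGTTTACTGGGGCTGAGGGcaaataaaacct
TEAD1: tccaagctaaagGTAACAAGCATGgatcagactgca
AFDN: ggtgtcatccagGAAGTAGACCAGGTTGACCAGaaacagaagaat
MARK3: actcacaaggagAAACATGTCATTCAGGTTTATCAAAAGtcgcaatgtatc

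Gene counts per library ran from 40279084 to 46863013, and counts of spliced reads from 25341453 to 32020553. TARDBP, the gene of TDP-43, was at 7270 to 7690 CPM (counts scaled to a common library total) in diffuse cells and at 2530 to 2620 CPM in aggregate cells, and reads of the transgene and of the endogenous gene cannot be told apart. Of 8 bone and osteosarcoma markers, all detected, 3 were higher and 4 lower in aggregate cells, and their summed level was 5770 to 6020 CPM in diffuse and 3750 to 4060 CPM in aggregate cells (edgeR quasi-likelihood test, by which 75.4% of all genes tested changed, 37.8% higher and 37.6% lower). Of 12 neuronal markers, 6 were higher and 4 lower, DCX was at 0.15 to 0.31 CPM in diffuse and 0 in all aggregate libraries, and their summed level was 311 to 334 CPM in diffuse and 332 to 344 CPM in aggregate cells. Of 6 epithelial markers, 0 were higher and 4 lower, with sums of 688 to 750 and 320 to 322 CPM. Of 6 blood markers, 1 was higher (CD68) and 1 lower (CD4), and HBB was at 0 in all libraries but aggregate library 3 (0.0241 CPM). The sums were 3.0 to 3.86 and 12.6 to 15.8 CPM. CD68 made up most of the sum in both groups, and the other 5 blood markers were under 1 CPM. The higher sum in aggregate cells therefore rests on CD68 alone and does not show more blood cells. The part of other cells in the microexon values was not tested. Inclusion correlated at 0.9933 to 0.9942 between libraries of a group and at 0.9873 to 0.9885 between groups, across 2805 microexons, which share libraries and are not independent replicates.

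For most microexons no change passed the test, and among those that passed, more were included at a higher than at a lower level in aggregate cells. Of the 4059 triads, 3553 (87.5%) had at least 10 counts in every library and were tested, and 506 were not. Inclusion was higher in aggregate cells in 140 triads (3.94%) and lower in 48 (1.35%), at an adjusted p under 0.05 (edgeR quasi-likelihood test of inclusion against skipping counts, adjusted over all cassette triads). The same test called 4.17% of all 44782 cassette triads tested, 3.07% higher and 1.11% lower, and of exons of 52 to 1000 nt it called 4.08%, 2.99% higher and 1.08% lower. The microexons' shares therefore lie near the background, and the difference between length classes was not tested. At an unadjusted p under 0.05 there were 704 microexon triads (19.8%), beside 18.8% of all cassette triads. No library of one group reached into the range of the other in 902 tested microexon triads (25.4%), beside 25.3% of all cassette triads. In 40 of the triads that rose and 7 of those that fell, an intron had under 5 counts in 1 group, so that the triad met the count rule largely through the other group and its direction was partly set by that rule. Among the 2702 tested triads without such an intron, 100 rose (3.7%) and 41 fell (1.52%), beside 2.66% and 1.08% over all cassette triads. The change was at least 10 percentage points in 51 triads that rose and 25 that fell, and at least 20 points in 26 and 7. Of all cassette triads tested, 1.4% passed with at least 10 points. The median change over all tested microexon triads was 0.31 points, beside 0.27 points over all tested cassette triads. Leaving out 1 library lowered the count of 188 to 107, 77 and 108 without aggregate libraries 1, 2 and 3, and to 96, 81 and 88 without diffuse libraries 1, 2 and 3. DESeq2 called 71 of the triads, and a test that takes the smaller flanking intron in place of the mean called 60. A test of whole groups of overlapping introns (edgeR diffSpliceDGE) called 5.02% of 35898 groups. Of 3992 microexon triads, 537 (13.5%) lay in a called group, among them 159 of the 188. These shares cannot be compared, because the first counts each group once and the second counts each triad. The share of all cassette triads in called groups was not computed.

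**Figure D1:**
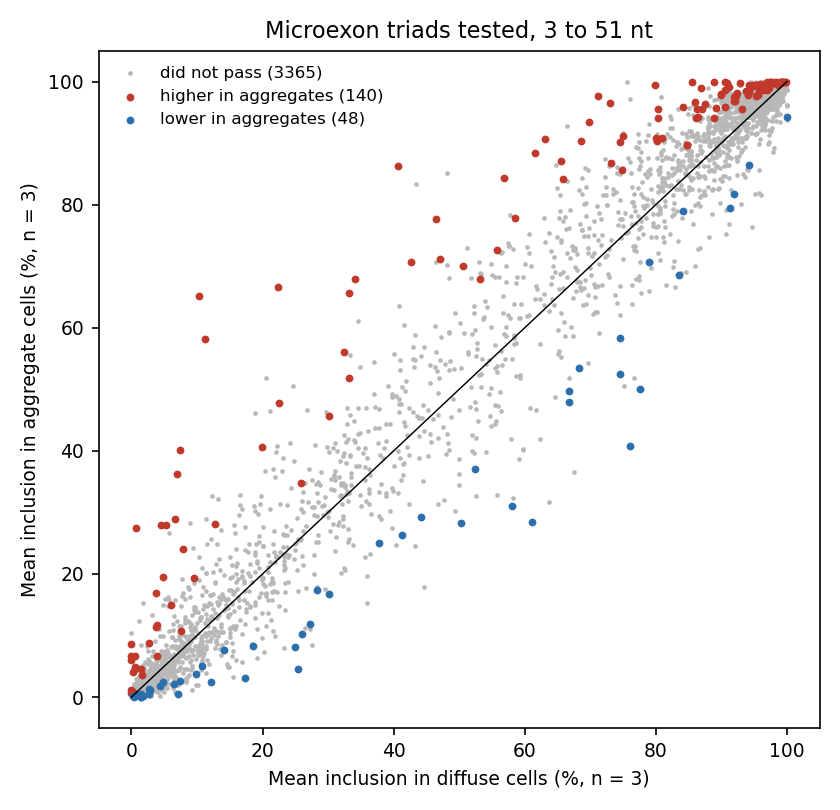
Mean inclusion of each tested microexon triad in diffuse cells (x axis, percent) and in aggregate cells (y axis, percent), 3 libraries each. Red points mark the 140 triads with higher and blue points the 48 with lower inclusion in aggregate cells, grey points the 3365 that did not pass, and the line marks equal inclusion.

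Where several triads held the same exon, the one with the most counts was used from here on, which left 3008 tested exons, of which 132 rose (4.39%) and 46 fell (1.53%). Exons with an intron under 5 counts in 1 group were kept here and below, so the direction of some was partly set by the count rule. The exons that rose had a median inclusion of 84.8% in diffuse and 94.2% in aggregate cells. In diffuse cells 53 of the 132 were already included above 90%, beside 1090 of all 3008 tested exons, a similar share. The exons that fell had medians of 25.7% and 9.25%. In diffuse cells 16 of the 46 were included below 10%, beside 938 of all 3008 tested exons, again a similar share. The median over all tested microexons was 64.4% in diffuse cells. Longer cassette exons had diffuse medians of 93.3% for rises and 12.3% for falls, beside 89.1% over all longer ones tested. Per library, the median over microexons was 63.6% to 64.1% in diffuse and 66.4% to 66.7% in aggregate cells. In 91 of the 132 exons that rose and 40 of the 46 that fell, the flanking introns were balanced, meaning that the smaller of their counts was at least 0.5 of the larger. Of all 3008 tested microexons, 2083 (69.2%) had balanced flanks, and of these 4.37% rose and 1.92% fell. Over all lengths, 4.45% of the cassette triads with balanced flanks were called, which is a share of triads and not of exons. In exons without balanced flanks, the inclusion value depends on which flanking intron is read.

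The 15 largest rises and 15 largest falls were chosen among calls with no overlap between groups. Their lack of overlap was therefore set by that choice. The largest rise was in PPFIBP1, which encodes liprin beta 1, a scaffold protein of cell adhesions. Its 33-nt exon at chr12:27677064-27677096 was included at 8.68%, 10.0% and 12.2% in diffuse and 69.9%, 60.3% and 65.2% in aggregate libraries 1, 2 and 3. The exon went from rarely used to the main form, with no overlap, and the difference was 54.8 points (SE 2.94, n = 3 per group, edgeR adjusted p = 1.13e-06). PPFIBP1 also holds an earlier 33-nt exon at chr12:27658816-27658848. That exon fell from 8.66%, 9.76% and 11.3% to 2.92%, 3.96% and 4.24% (edgeR adjusted p = 0.00943, but 0.0514 without diffuse library 3 and 0.0651 with the smaller flanking intron). The exons of 1 gene and equal length thus moved in opposite directions.

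PTS encodes an enzyme of tetrahydrobiopterin synthesis. Its 23-nt coding exon (chr11:112230208-112230230) was included at 40.9%, 50.6% and 30.6% in diffuse and 83.7%, 86.1% and 89.1% in aggregate libraries. The diffuse libraries were spread widely but stayed below every aggregate library (45.6 points, SE 5.99, edgeR adjusted p = 3.1e-05). WDR41, a partner of C9orf72 and SMCR8, lost nearly all skipping of a 49-nt coding exon (chr5:77464761-77464809). Its inclusion was 74.7%, 66.4% and 72.2% in diffuse and 98.7%, 96.5% and 98.0% in aggregate libraries (26.6 points, SE 2.54, edgeR adjusted p = 6.12e-06).

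ROBO1 encodes a receptor for Slit guidance cues. Its 27-nt coding exon (chr3:78647629-78647655) was at 49.1%, 37.7% and 41.1% in diffuse and 73.5%, 71.8% and 67.0% in aggregate libraries (28.1 points, SE 3.91, edgeR adjusted p = 0.00599). MYH14, a heavy chain of nonmuscle myosin, included its 24-nt coding exon (chr19:50224154-50224177) at 65.2%, 55.0% and 64.3% in diffuse and 86.7%, 89.8% and 88.6% in aggregate libraries (26.9 points, SE 3.4, edgeR adjusted p = 0.00397). In both genes the exon length is a multiple of 3 and, as the choice required, the groups did not overlap. PDP1, a phosphatase that activates pyruvate dehydrogenase, showed higher inclusion of a 35-nt exon (chr8:93917911-93917945), from 35.5%, 27.5% and 36.5% to 66.9%, 60.9% and 69.2% (edgeR adjusted p = 0.00147). DNM1, the dynamin of synaptic vesicle retrieval, showed higher inclusion of a 37-nt exon (chr9:128253101-128253137), from 3.94%, 4.35% and 12.6% to 37.2%, 34.5% and 37.1% (edgeR adjusted p = 0.00718). In DNM1 diffuse library 3 stood above the other diffuse libraries and still below all aggregate libraries.

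Further calls were less stable. SERAC1, a protein of phospholipid remodelling, showed higher inclusion of a 37-nt coding exon (chr6:158155315-158155351), from 48.8%, 64.1% and 57.6% to 82.8%, 91.7% and 78.3% (edgeR adjusted p = 0.0143, but 0.068 without aggregate library 2, 0.066 without diffuse library 1 and 0.073 with DESeq2). PLEKHA1, a phosphoinositide-binding adaptor, showed higher inclusion of a 41-nt coding exon (chr10:122428276-122428316), from 48.4%, 48.2% and 44.4% to 74.4%, 73.1% and 66.0% (edgeR adjusted p = 0.0125, but 0.0507 and 0.0698 without aggregate libraries 1 and 2, 0.0574 without diffuse library 3, 0.0801 with DESeq2 and 0.142 with the smaller flanking intron). Neither exon overlapped between the groups, as the choice required. An exon of 18 nt in FAM114A2 (chr5:154037438-154037455), absent from GENCODE 29, was at 0%, 2.22% and 0% in diffuse and 25%, 24.8% and 32.4% in aggregate libraries. With 1 flanking read in diffuse cells, it met the count rule through the aggregate libraries alone, so its direction was set by the rule and its p is not given as support.

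Unbalanced flanking introns marked 4 of the 15 largest rises. A 46-nt interval on chromosome 1 with no gene (chr1:242731963-242732008) went from a mean of 11.2% ± 1.17 to 58.1% ± 1.72 (SD, n = 3), but with the smaller flanking intron its log2 change in inclusion relative to skipping was -0.17 (edgeR adjusted p = 0.939). SLC25A36, a mitochondrial nucleotide carrier, went from 22.5% ± 1.08 to 47.8% ± 4.52 for a 37-nt exon (chr3:140967000-140967036), with an edgeR adjusted p of 0.00851 that became 0.341 with the smaller flanking intron. These values therefore depend on which flanking intron is read. In ANKRD28, a regulatory subunit of a protein phosphatase, and GOLGA8A, a golgin, the unannotated 51-nt and 40-nt intervals gave edgeR adjusted p of 0.0314 and 0.0294. The ANKRD28 call was lost without any 1 of the 6 libraries (0.066 to 0.115), and the GOLGA8A call without any 1 except diffuse library 1 (0.0715 to 0.119). Both were lost with DESeq2 (0.111 and 0.105) and with the smaller flanking intron (0.17 and 0.866).

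**Figure D2:**
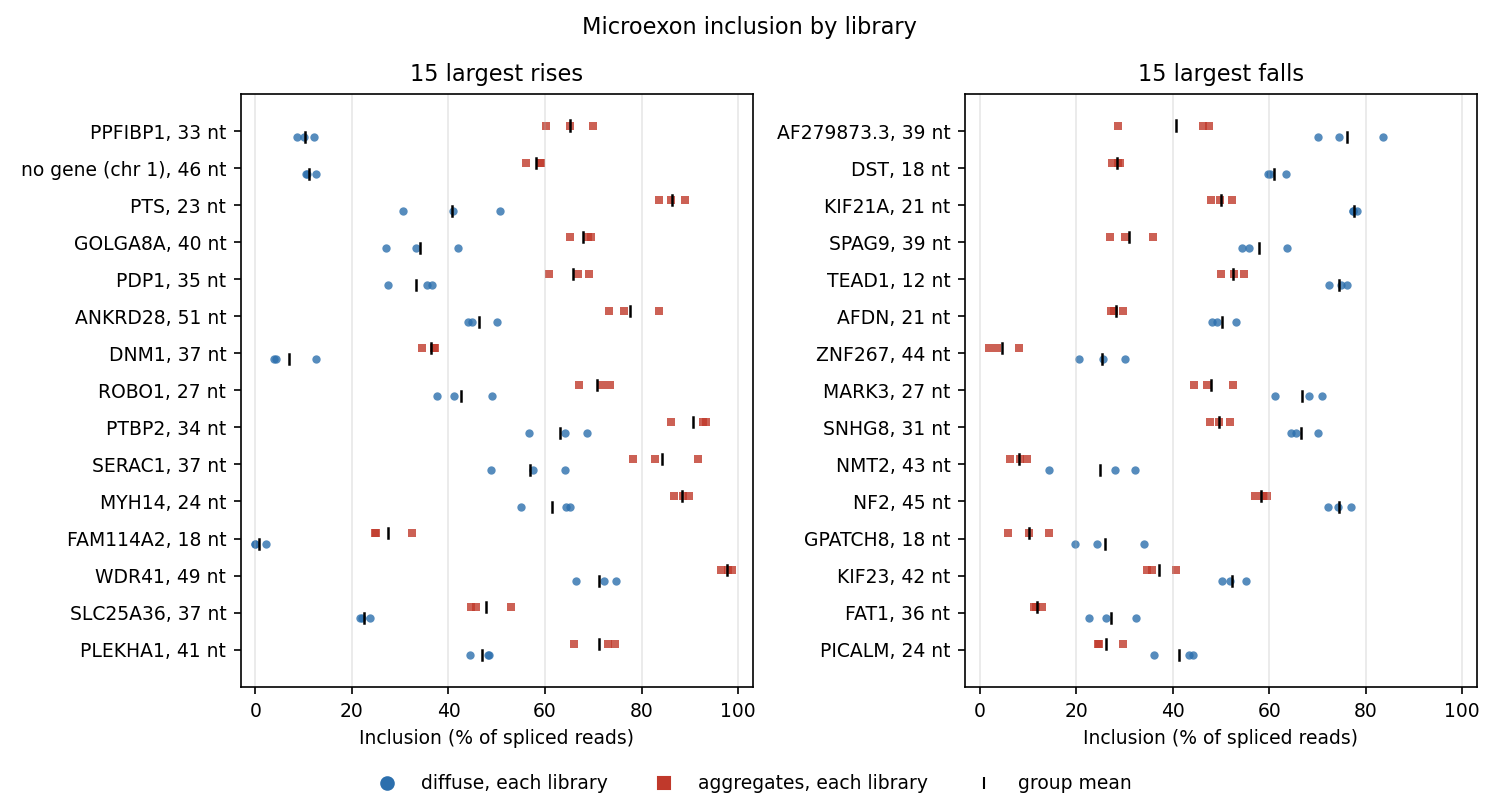
Inclusion (x axis, percent) of the 15 microexons with the largest rises and the 15 with the largest falls that passed the test, with no overlap between groups and at least 20 counts in every library. Blue circles are diffuse and red squares aggregate libraries, and black ticks are group means. In every row shown, as the choice required, all 3 libraries of one group lie on the same side of the other group.

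The largest fall in a coding exon was in DST, which encodes dystonin, a linker of cytoskeletal filaments. Its 18-nt coding exon (chr6:56468982-56468999) was included at 63.5%, 59.7% and 60.1% in diffuse and 28.6%, 29.2% and 27.5% in aggregate libraries. The groups were tight and far apart, at -32.7 points (SE 1.31, n = 3 per group, edgeR adjusted p = 1.98e-05). KIF21A, a kinesin motor, included a 21-nt coding exon (chr12:39330242-39330262) at 78.1%, 77.4% and 77.4% in diffuse and 49.9%, 48.0% and 52.4% in aggregate libraries (-27.5 points, SE 1.31, edgeR adjusted p = 0.00114). SPAG9, a scaffold of JNK signalling and of motor transport, included a 39-nt coding exon (chr17:50975863-50975901) at 54.4%, 55.9% and 63.7% in diffuse and 30.1%, 35.9% and 27.1% in aggregate libraries (-27.0 points, SE 3.9, edgeR adjusted p = 0.00234). Each of these 3 exons is a multiple of 3 in length.

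TEAD1 is the DNA-binding partner of YAP in the Hippo pathway. Its 12-nt coding exon (chr11:12878889-12878900) was at 72.4%, 74.9% and 76.1% in diffuse and 54.8%, 50.1% and 52.7% in aggregate libraries (-21.9 points, SE 1.74, edgeR adjusted p = 0.00397). AFDN, or afadin, links nectins to actin at adherens junctions. Its 21-nt coding exon (chr6:167913403-167913423) was at 53.2%, 49.1% and 48.1% in diffuse and 27.8%, 27.3% and 29.7% in aggregate libraries (-21.9 points, SE 1.73, edgeR adjusted p = 0.00397). NF2 encodes merlin, a tumour suppressor upstream of the Hippo kinases. Its 45-nt exon (chr22:29683020-29683064) was at 77.0%, 72.2% and 74.2% in diffuse and 59.5%, 57.0% and 58.7% in aggregate libraries (-16.1 points, SE 1.56, edgeR adjusted p = 0.00397, and 0.0545 with the smaller flanking intron). No library of one group reached the other in these 3 genes, as the choice required.

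ZNF267, a zinc finger gene, skipped a 44-nt exon (chr16:31890207-31890250) almost fully in aggregate cells, at 8.22%, 1.94% and 3.66% against 30.1%, 20.7% and 25.5% (edgeR adjusted p = 0.00699). FAT1, a giant cadherin, fell from 26.3%, 32.4% and 22.7% to 11.7%, 12.9% and 11.2% for a 36-nt coding exon (chr4:186590368-186590403, edgeR adjusted p = 0.0104, but 0.0631 without diffuse library 2 and 0.0637 with the smaller flanking intron). KIF23, a kinesin of cytokinesis, fell from 50.2%, 51.8% and 55.3% to 35.8%, 34.7% and 40.8% for a 42-nt coding exon (chr15:69425282-69425323, edgeR adjusted p = 0.0115, but 0.0644 without aggregate library 2, 0.0643 without diffuse library 3, 0.0581 with the sum of the flanking introns, 0.104 with the smaller one and 0.0513 with DESeq2). These exons did not overlap between groups, as the choice required. PICALM, a clathrin assembly protein, fell from 36.2%, 43.5% and 44.3% to 29.8%, 24.7% and 24.5% for a 24-nt coding exon (chr11:85978070-85978093, edgeR adjusted p = 0.015, but 0.0618 to 0.0773 without aggregate library 2 or 3 or diffuse library 2 or 3, 0.0636 with the sum of the flanking introns, 0.122 with the smaller one and 0.0635 with DESeq2). NMT2, a protein myristoyltransferase, fell from 32.3%, 28.1% and 14.3% to 8.49%, 6.23% and 9.77% for a 43-nt coding exon (chr10:15140987-15141029, edgeR adjusted p = 0.00963, 0.0552 without aggregate library 2, and 0.0546 and 0.0626 without diffuse libraries 1 and 2).

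The calls of 3 other exons among the 15 largest falls were lost when any 1 library was left out. They were a 39-nt exon of the non-coding transcript AF279873.3 (76.1% ± 6.84 to 40.8% ± 10.6, SD, n = 3, edgeR adjusted p = 0.0368, 0.0602 to 0.146 with 1 library left out), an 18-nt exon of GPATCH8 (26.0% ± 7.34 to 10.2% ± 4.23, 0.0417, 0.0528 to 0.155) and a 27-nt coding exon of the kinase MARK3 (chr14:103498502-103498528, 66.8% ± 5.07 to 48.0% ± 4.04, 0.0363, 0.0513 to 0.136), whose flanks were unbalanced. All 3 calls were also lost with DESeq2, with the sum and with the smaller of the flanking introns (0.0554 to 0.12). In SNHG8, a host transcript of a small nucleolar RNA, a 31-nt interval with unbalanced flanks went from 66.7% ± 2.95 to 49.7% ± 2.0 (edgeR adjusted p = 0.0124, 0.0509 without aggregate library 2, 0.0679 without diffuse library 3 and 0.0525 with the sum of the flanking introns). With the smaller flanking intron its sign turned, to a log2 change in inclusion relative to skipping of 0.40 (edgeR adjusted p = 0.793).

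Genes known to hold neuronal microexons were looked at as a list of 56 genes, of which 36 had a microexon here, with 56 exons. Of the 52 tested exons, 5 rose (9.62%), 4 fell (7.69%) and 43 did not pass, beside 4.39% and 1.53% over all tested microexons, a difference that was not tested. The list had a median change of -0.0090 points beside 0.28 points over all tested microexons. MEF2D is a transcription factor of muscle and neurons. Its 21-nt coding exon (chr1:156476494-156476514) rose from 6.24%, 7.07% and 6.74% to 31.6%, 26.5% and 28.8% (22.2 points, SE 1.5, edgeR adjusted p = 4.51e-05). TRIO, a guanine nucleotide exchange factor, used an unannotated 40-nt exon (chr5:14489030-14489069) at 5.15%, 5.96% and 4.75% in diffuse and 23.8%, 30% and 30.3% in aggregate libraries (22.7 points, SE 2.14, edgeR adjusted p = 3.1e-05). Every aggregate library lay above every diffuse library in both genes.

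The other exons of the list that passed moved by few points, apart from the PPFIBP1 and KIF21A exons above. A 38-nt exon of CLTA, a clathrin light chain, was nearly always included, at 98.5% ± 0.22 in diffuse and 99.8% ± 0.0444 in aggregate cells (SD, n = 3, edgeR adjusted p = 0.000855). EXOC1, a subunit of the exocyst, included a 45-nt exon at 2.67% ± 1.02 and 8.77% ± 1.2 (edgeR adjusted p = 0.0459, lost without any 1 of the 6 libraries, 0.0779 to 0.163). SPTAN1, the alpha chain of spectrin, included a 15-nt exon at 2.72% ± 0.693 and 0.449% ± 0.626 (edgeR adjusted p = 0.0352, lost without aggregate library 1 or 2 or any 1 diffuse library, 0.0578 to 0.147). PTPRF, a receptor phosphatase, included a 33-nt exon at 2.87% ± 0.386 and 1.18% ± 0.428 (edgeR adjusted p = 0.0273, lost under the same libraries left out, 0.0547 to 0.122). The EXOC1, SPTAN1 and PTPRF calls were also lost with DESeq2 (0.12 to 0.233) and with the smaller flanking intron (0.0527 to 0.098). The groups did not overlap in these exons. Several exons that neurons are known to include stayed rarely used in both groups of these cells: the 36-nt exon of CLTA was at 0.464% and 0.405% (edgeR adjusted p = 0.864) and the 24-nt and 33-nt exons of AGRN, an organizer of the neuromuscular synapse, were at 1.41% and 1.03% (0.514) and at 0.286% and 0.238% (0.871). The 9-nt exon of the kinase MAP4K4, used in most transcripts here, was at 62.4% ± 1.84 and 64.6% ± 1.48 (2.15 points, SE 1.36, edgeR adjusted p = 0.697), and the 27-nt exon of PTPRF was at 2.22% and 1.55% (0.433).

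A further 4 exons that passed were named after their values were seen. PPP3CB, a catalytic subunit of calcineurin, showed higher inclusion of a 30-nt exon (chr10:73439872-73439901), from 69.5%, 63.5% and 72.8% to 89.6%, 91.3% and 90% (edgeR adjusted p = 0.00179). HSPG2, or perlecan, showed higher inclusion of a 51-nt exon (chr1:21888668-21888718), from 8.57%, 6.53% and 8.49% to 23.2%, 27.1% and 21.8% (edgeR adjusted p = 0.00028). ATP5F1C, a subunit of mitochondrial ATP synthase, showed higher inclusion of a 37-nt exon (chr10:7806974-7807010), from 60.7%, 59.8% and 55.1% to 77.6%, 79.0% and 76.8% (edgeR adjusted p = 0.000174). All 3 exons were higher in 3 of 3 aggregate libraries than in any diffuse library. TNNT1, slow skeletal troponin T, showed lower inclusion of a 33-nt exon (chr19:55146434-55146466), from 68.4%, 69.3% and 67.3% to 51.8%, 54.7% and 54.0% (edgeR adjusted p = 0.0015, 0.0753 with the smaller flanking intron).

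Some microexons lie in the genes of splicing regulators themselves. In 11 such genes 18 exons were tested, of which 2 rose (11.1%) and 0 fell by edgeR's quasi-likelihood test, beside 4.39% and 1.53% of all tested microexons. PTBP2, the neuronal relative of PTBP1, is known to be kept low in non-neuronal cells by skipping of a short exon that shifts the reading frame. Its 34-nt exon (chr1:96806419-96806452) was at 64.1%, 68.6% and 56.6% in diffuse and 92.7%, 86.1% and 93.4% in aggregate libraries (27.6 points, SE 4.19, edgeR adjusted p = 0.0034). PTBP2 mRNA was at 29.4, 33.4 and 31.0 CPM in diffuse and 43.0, 43.6 and 46.3 CPM in aggregate libraries (log2 fold change 0.50, SE 0.05, edgeR adjusted p = 1.84e-17). Both values were higher in every aggregate library, and a link between them was not tested. MBNL1, a regulator of muscle splicing, showed higher inclusion of a 36-nt exon (chr3:152455542-152455577), from 77.7%, 72.7% and 73.3% to 92.2%, 85.2% and 93.1% (edgeR adjusted p = 0.0116, but 0.0574 and 0.0546 without aggregate libraries 1 and 3, 0.0581 and 0.0511 without diffuse libraries 2 and 3, and 0.132 with DESeq2). A 34-nt exon of PTBP3 was at 3.29% ± 0.865 and 4.01% ± 0.967 (SD, n = 3, edgeR adjusted p = 0.768), and a 40-nt exon of RBFOX2 at 90% ± 1.63 and 93.3% ± 1.35 (edgeR adjusted p = 0.251). MBNL1, PTBP3 and RBFOX2 were named after their values were seen.

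Of 38 genes of splicing regulators, 36 were tested for their level, and 12 were higher, 14 lower and 10 did not pass in aggregate cells, beside 75.4% of all genes that changed by the same test. Their median log2 fold change was -0.069, beside 0.0096 over all genes. RBFOX3, a neuronal RNA-binding protein, was at 2.71, 2.98 and 2.69 CPM in diffuse and 20.1, 21.6 and 18.6 CPM in aggregate libraries (log2 fold change 2.85, SE 0.08, edgeR adjusted p = 5.17e-53). CELF2 was at 22.4 ± 1.34 and 49.6 ± 2.8 CPM (SD, n = 3, log2 fold change 1.15, edgeR adjusted p = 6.14e-38) and ELAVL4, a neuronal RNA-binding protein, at 2.6 ± 0.244 and 4.45 ± 0.22 CPM (0.78, 3.37e-10). All 3 rose, with every aggregate library above every diffuse library. ELAVL2, of the same family, fell from 88.5 ± 0.383 to 14.4 ± 0.635 CPM (log2 fold change -2.62, edgeR adjusted p = 5.3e-69). The splicing factor SRSF3 fell from 1400, 1320 and 1430 CPM to 421, 416 and 461 CPM (log2 fold change -1.68, SE 0.04, edgeR adjusted p = 2.75e-55), and TARDBP changed by -1.53 (SE 0.04, edgeR adjusted p = 1.1e-52). NOVA1, from 6.88 to 3.96 CPM, and QKI, from 368 to 229 CPM, also fell (log2 fold changes -0.80 and -0.68, edgeR adjusted p = 9.55e-14 and 1.76e-32). More abundant relatives of RBFOX3 and CELF2 fell: RBFOX2 from 238 to 165 CPM and CELF1 from 242 to 155 CPM (edgeR adjusted p = 2.23e-25 and 5.2e-31). MBNL1 fell from 178 to 114 CPM and MBNL2 from 89.4 to 61.8 CPM (edgeR adjusted p = 7.16e-31 and 1.75e-23). PTBP1 rose from 358 to 448 CPM (log2 fold change 0.324, edgeR adjusted p = 2.09e-13). Of the microexon activators known from neurons, SRRM3 did not pass, at 27.5, 24.7 and 27.6 CPM in diffuse and 27.5, 25.6 and 26.9 CPM in aggregate libraries (edgeR adjusted p = 0.916), and SRRM4 was at 0.10 to 0.119 and 0.149 to 0.232 CPM, too low to be tested.

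**Figure D3:**
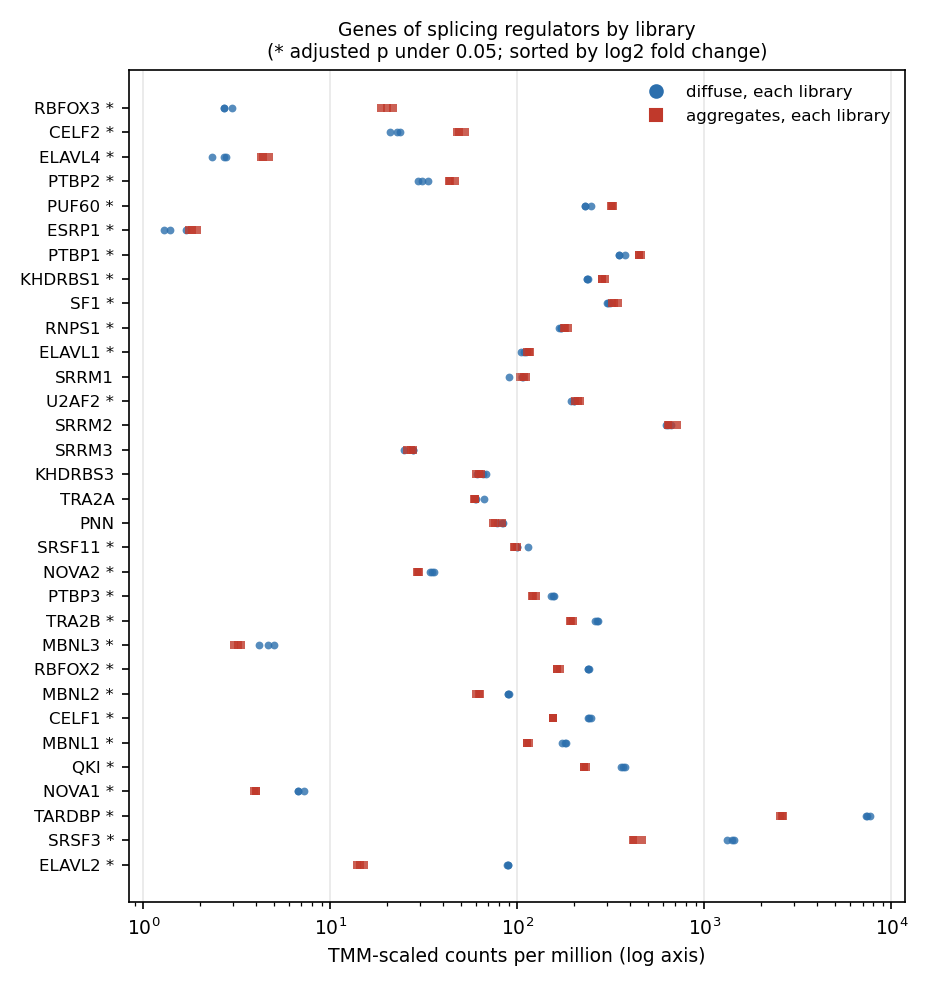
Level of each splicing regulator gene with at least 1 CPM in either group (x axis, CPM scaled by edgeR's TMM method, log axis), sorted by log2 fold change. Blue circles are diffuse and red squares aggregate libraries, and an asterisk marks an adjusted p under 0.05. RBFOX3 at the top rose most and ELAVL2 at the bottom fell most.

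Within the microexons, rises outnumbered falls in each of 4 length classes. Among triads of 3 to 15 nt, 9 of 204 rose (4.41%) and 4 fell (1.96%). Among those of 16 to 27 nt, 14 of 478 rose (2.93%) and 12 fell (2.51%). For 28 to 39 nt the counts were 42 and 14 of 1074 (3.91% and 1.3%), and for 40 to 51 nt 75 and 18 of 1797 (4.17% and 1.0%). The class of 16 to 27 nt came nearest to an equal number of rises and falls. The next class outside the limit, 52 to 100 nt, had 3.6% rises and 0.913% falls of 12820 triads. The differences between classes were not tested. At the limit itself, a 51-nt exon of CLPTM1L was at 98.0% and 98.8% (edgeR adjusted p = 0.17) and a 51-nt exon of EIF3H at 0.332% and 0.269%, while just outside it 52-nt exons of ALDOA and ATP5PO were at 40.9% and 39.7%, and at 0.258% and 0.195%, in diffuse and aggregate cells.

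**Figure D4:**
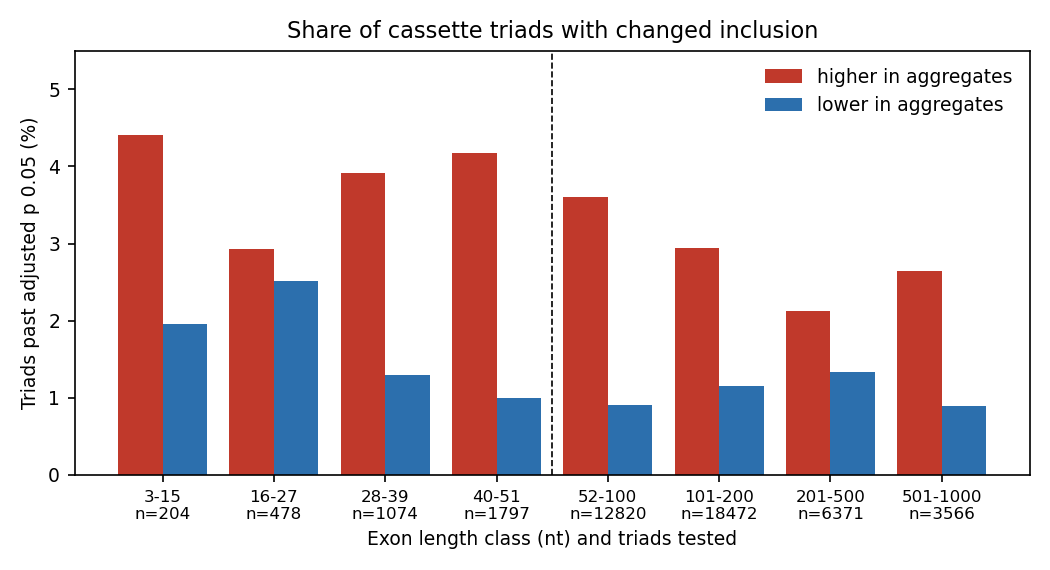
Share of tested cassette triads whose inclusion was higher (red) or lower (blue) in aggregate cells, by exon length class, with the number of triads tested under each class. The dashed line marks the limit between microexons and longer exons. The share of falls is highest, at 2.51%, in the class of 16 to 27 nt.

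Exons whose length is a multiple of 3 keep the reading frame, and these were unevenly spread over the exons that rose and fell. Of the 132 exons that rose, 54 (40.9%) had such a length, against 30 of the 46 that fell (65.2%) and 50.3% of all 3008 tested. Among wholly coding exons, the shares were 32 of 79 (40.5%), 24 of 30 (80%) and 60.5%. With balanced flanks only, they were 39.6%, 67.5% and 54.0%. Read the other way, 3.57% of the 1514 exons with such a length rose and 1.98% fell, and 5.22% of the 1494 others rose and 1.07% fell. Of the 15 largest rises 5 were a multiple of 3, and of the 15 largest falls 12 were. For longer cassette exons the shares were 32.9% of the 1092 that rose, 41.2% of the 405 that fell and 38.8% of all tested, and among wholly coding ones 32.5%, 63.1% and 45.2%. These shares are a description of exons called in 1 comparison, and their difference was not tested.

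**Figure D5:**
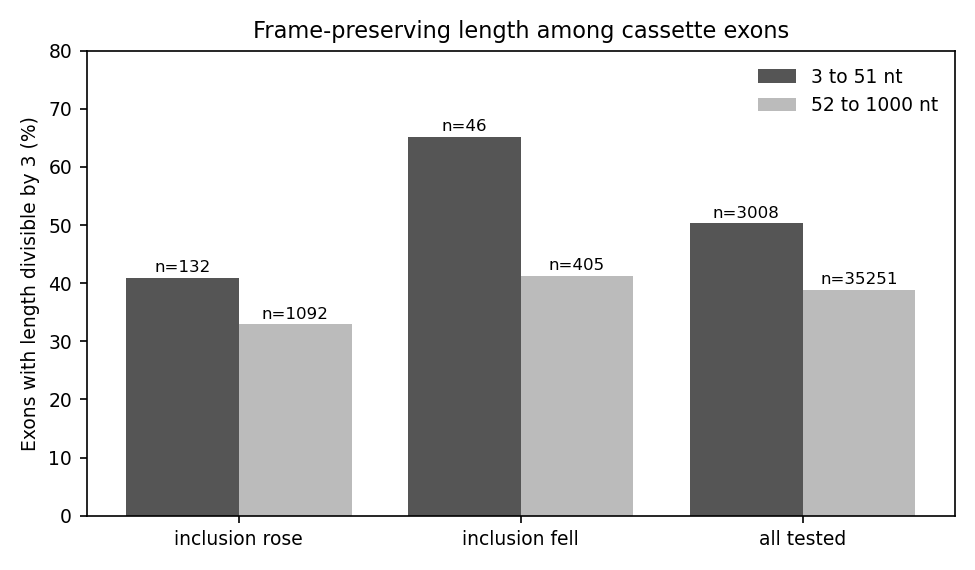
Share of cassette exons whose length is divisible by 3 (y axis, percent) among exons whose inclusion rose, fell, and all exons tested, for microexons (dark bars) and longer cassette exons (light bars). The number of exons stands above each bar. Among microexons the bar for falls reaches 65.2% and that for rises 40.9%.

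Of the bases of the annotated exons themselves, median GC content was 44.4% in the 97 annotated exons that rose, 47.6% in the 39 that fell and 46.0% in those that did not pass. The TDP-43 type repeat TGTGTG or GTGTGT, searched on the transcript strand where these letters can overlap each other, was in 2 of 97 exons that rose (2.06%), 0 of 39 that fell and 22 of all 2092 tested annotated exons (1.05%). Its reverse complements CACACA and ACACAC were in 0, 0 and 31 (1.48%). Introns were not searched.

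Host gene levels moved in both directions. Of 2258 genes with a tested microexon, 2170 could be tested for their level, and 863 were higher and 977 lower in aggregate cells (84.8% changed, beside 75.4% of all genes), with a median log2 fold change of -0.041 beside 0.0096 over all genes. Hosts needed at least 10 spliced counts at a triad in every library, so all genes are not matched to them in level. The difference between the shares was not tested. Among 114 hosts of exons that rose, 47 were higher, 54 lower and 13 did not pass, and 89 lay within a change of 1.5-fold. Among 45 hosts of exons that fell, 19 were higher, 21 lower and 5 did not pass, and 37 lay within 1.5-fold. Large inclusion changes came with either direction of the host: PTS was at 14.8 CPM in diffuse and 32.3 CPM in aggregate cells (log2 fold change 1.13, edgeR adjusted p = 2.73e-36), MYH14 at 43.6 and 84.0 CPM (0.95, 5.05e-39), PPFIBP1 at 219 and 146 CPM (-0.58, 7.66e-23) and SERAC1 at 44.5 and 26.4 CPM (-0.75, 3.71e-28).

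Exons absent from GENCODE 29 made up 916 of the 3008 tested exons, and 35 of them rose (3.82%) and 7 fell (0.764%), beside 4.39% and 1.53% of all tested microexons. Of these, 12 and 4 had balanced flanks. Their median inclusion was 7.58% in diffuse cells. In 3 exons, 1 of them unannotated, no flanking read was counted in any aggregate library. In 6 exons, all unannotated, no flanking read was counted in any diffuse library. These 6 met the count rule through the aggregate libraries alone, so their direction was set by the rule, and the values of those named are a description. TRRAP, a scaffold of histone acetyltransferases, held one of 42 nt (chr7:98881695-98881736). It was included at 3.47%, 10.2% and 6.57% in aggregate libraries, whereas 0 counts in diffuse cells allow up to 0.498%. CNOT1, the scaffold of a deadenylase complex, held one of 36 nt (chr16:58539521-58539556) at 0.921%, 1.19% and 1.56%, against a limit of 0.188% in diffuse cells. USP3, a deubiquitinase, used one of 44 nt (chr15:63588533-63588576) at 0.496%, 0.627% and 0.46% in diffuse and 4.99%, 4.94% and 3.76% in aggregate libraries (edgeR adjusted p = 0.00246). TRRAP, CNOT1 and USP3 were named after their values were seen. In USP3 every aggregate library lay above every diffuse library.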

How the data were processed

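RNA of 6 sorted U2OS libraries was measured by stranded polyA RNA sequencing. The tools named per the submitters' processing notes are STAR 2.7.11a and fastp 0.23.2, with the build hg38. The deposited values are raw counts, not normalized: spliced-read counts per intron (153462 introns, grouped by LeafCutter) and read counts per gene. LeafCutter's version and the gene counter with its annotation and strand setting were not given in the sources used here. Near-identical copies, such as that of U2AF1, and overlapping genes are uncertain. The members and lists were chosen with earlier results of these data known.

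Each triad gave a rounded mean of the flanking counts and a skipping count per library. Triads with at least 10 counts in every library were tested with edgeR 4.0.16 (R 4.3.3, robust quasi-likelihood fit): library terms, inclusion, and inclusion by group, with Benjamini-Hochberg adjustment over all cassette triads at 0.05. The edgeR test and a quasi-binomial alternative were run on simulated triads. Changes were set only in triads of 10% to 90% inclusion with at least 50 mean counts. Changes outside these limits, and DESeq2, were not simulated. Genes were tested in edgeR with filterByExpr and TMM scaling. SDs are over libraries, and SEs of differences in points come from those SDs. Exons were placed in GENCODE 29, which lists 95517 of the deposited introns, and 9 exons were listed on both strands. The named exons were the 15 largest rises and 15 largest falls that passed with no overlap and at least 20 counts per library, up to 10 passing and 5 best-covered other exons of the host list, the 3 shortest and those at the length limit. Named regulators were the 8 largest changes of at least 1 CPM plus SRRM3, SRRM4 and TARDBP. The levels of RBFOX2, CELF1, MBNL1, MBNL2 and PTBP1 were added after the values were seen. Alternatives were another inclusion count, other filters, DESeq2 1.42.0, a quasi-binomial test with limma 3.58.1, a replicate block and 1 library left out. Intron motifs were not analysed here. Where 0 reads were counted, the upper limit printed is that of 3 reads, which allows for counting error and nothing else.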

Additional observations from a re-analysis of the deposited data

How the results depend on the processing

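Against 188 called microexon triads and 1869 called cassette triads, the counts were 124 and 1270 with the sum of the flanking introns, 71 and 734 with DESeq2, 60 and 576 with the smaller flanking intron, and 317 and 3240 with a quasi-binomial test. The last 2 settings, and the restrictions to balanced flanks (131 triads) and to triads without an intron under 5 counts in a group (141), were chosen after seeing the data. A call of the whole intron cluster (diffSpliceDGE, which called 5.02% of 35898 clusters) covered 537 microexon triads, among them 159 of the 188. A share of clusters and a count of triads cannot be compared. Exons of 3 to 27 nt gave 39 calls and a change of at least 10 points gave 76. With 1 library left out the counts ran from 77 to 108 and from 835 to 1033. Of 37 called exons, the 15 largest rises, the 15 largest falls and 7 further exons of the host list, 20 were called with the smaller flanking intron and 23 to 30 with 1 library left out. With the replicate number as a block, 97 microexon triads, 971 cassette triads and 28 of these exons were called. Same-numbered libraries did not deviate together in inclusion (r = -0.0162, 0.0046 and 0.00504) and the labels give no pairing, although for gene levels each library correlated best with its own number (0.0416, 0.102 and 0.138). The counts for host genes (1779 to 1854, 1840 reported) and regulators (23 to 27, 26 reported) stayed within 1.5-fold under every setting run.

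With the smaller flanking intron the sign turned for the 46-nt interval without a gene on chromosome 1 (log2 change -0.17), the 31-nt SNHG8 exon (0.40) and the 3-nt VDAC3 exon (0.014). Signs also turned with 1 library left out for values that had not passed: the 36-nt CLTA exon (log2 change -0.355 to 0.184), the 33-nt AGRN exon (-1.14 to 0.453), the 51-nt EIF3H exon (-0.618 to 0.0309) and SRRM3 (-0.0515 to 0.0384), and with DESeq2 for the 9-nt MAP4K4 exon (-0.030). DESeq2 scaled the inclusion and skipping counts of a library separately, whereas the edgeR fit used the same library total for both. The part of this difference in the DESeq2 values, and the cause of the other sign changes, were not tested. Spliced-read depth limits small shares: exons of few counts are seen in steps of 1 read.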

Other observations

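Some exons of 3 nt were listed at 0 in 1 library. The 3-nt exon of NCAM1, a neural cell adhesion molecule (chr11:113246368-113246370), was at 0%, 57.5% and 72.7% in diffuse and 87.0%, 71.7% and 91.6% in aggregate libraries (edgeR adjusted p = 0.477). The 3-nt exon of CYTH1, an exchange factor for ARF GTPases (chr17:78696007-78696009), named after its values were seen, was at 64.4%, 64.7% and 61.8% in diffuse and 0%, 47.1% and 48.1% in aggregate libraries (edgeR adjusted p = 0.196). In each gene 1 library was listed at 0 while its replicates lay far above it. The upstream and downstream flanking introns of CYTH1 held 99 and 199 counts in diffuse cells, but 140 and 0 in aggregate cells. Its aggregate values therefore rest on the upstream intron, and the downstream intron met the count rule through the diffuse libraries alone. The 3-nt exon of CYTH2, of the same family (chr19:48477717-48477719), was at 64.8%, 66.8% and 68.5% in diffuse and 56.5%, 58.5% and 40.6% in aggregate libraries (edgeR adjusted p = 0.106). The 3-nt exon of VDAC3, a mitochondrial outer membrane channel, was at 0%, 2.45% and 2.08% in diffuse and 0% in all 3 aggregate libraries, which allows up to 0.124%. It met the count rule through the diffuse libraries alone, so its direction was set by the rule.

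A 19-nt exon of MRPL33, a mitochondrial ribosomal protein (chr2:27772674-27772692), was called in opposite directions by 2 of its triads, and was named after its values were seen. Against the skipping intron chr2:27771800-27774423 it was at 99.3% ± 0.298 in diffuse and 99.9% ± 0.0371 in aggregate cells (SD, n = 3, edgeR adjusted p = 0.0487). Against the longer skipping intron chr2:27752955-27779432 it was at 91.3% ± 0.35 and 79.4% ± 3.12 (edgeR adjusted p = 0.0161), where one flanking intron held 21 counts and the other 2493 over the 6 libraries.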
